A study of Mus musculus with 2 samples.

Results

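The epidermal growth factor (EGF) family was described here by 9 genes, 6 ligands (Hbegf, Areg, Ereg, Epgn, Tgfa and Btc) and 3 receptors (Egfr, Erbb2 and Erbb3). They were taken as a fixed list of names, chosen with earlier results of these data known. All 9 were present among the 31054 genes of the normal matrix and the 32285 genes of the wounded matrix. Levels were followed across the 4 clusters named in the deposited table of the normal library, the 6 clusters named in that of the wounded library, and the cells that passed the filter of the study but were not in these tables.

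The ligands are made as membrane-anchored precursors, released by ADAM proteases and bound by EGFR on the same or a neighbouring cell. ERBB2 has no ligand of its own and acts as a partner in receptor pairs, whereas ERBB3 binds neuregulins and has little kinase activity. In stratified and intestinal epithelium the pathway acts through the Ras and MAP kinase cascade, is held back by feedback inhibitors such as Errfi1 and the dual-specificity phosphatases, and is known for its part in epithelial proliferation and wound closure.

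Droplet-based RNA sequencing, which counts 1 unique molecular identifier (UMI) per captured transcript near its 3' end, was run on anorectal epithelium of C57/BL6J mice of the genotype K17CreERT2;R26RGFP, with 1 normal library and 1 library taken 1 week after an EDTA wound. Both groups carried the tamoxifen-inducible Cre under the keratin 17 promoter, which marks cells of the transition zone between anal canal and rectum with GFP, and both received 2 injections of tamoxifen. The wound was made with hot EDTA and a brush that removed rectal crypts beside the transition zone in mice of 2 to 4 months, and at least 5 mice were pooled per library. Cells were sorted as viable and EpCam-positive, with exclusion of CD45, CD11b, CD31 and PDGFRa. With 1 library per condition there was no replicate, so the wound and the library cannot be told apart, no p-value was computed, and every interval covers counting error only.

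The normal table named 939 cells (Anal Canal 432, Basal 257, Suprabasal 187, Rectum 63) and that of the wounded library 4147 cells (Suprabasal 1032, Regeneration 991, Wound_Stress 838, Basal 573, Rectum 397, Hybrid 316). The median depth of named cells was 9724 UMIs for normal and 10077 UMIs for wounded cells, and the median mitochondrial share was 4.77% and 8.50%. A further 610 normal and 1078 wounded cells passed the filter and were in neither table. The totals were 17617944 UMIs (normal) and 88260050 UMIs (wounded), and the libraries shared 1 barcode sequence, which was not among the named cells.

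The cluster names were checked against markers before the members were compared. The Rectum clusters held 9810 (normal) and 8202 (wounded) CPM of summed rectal markers, where CPM stands for counts of a gene or list in each 1000000 UMIs of a cluster, all its cells pooled, and the other named clusters held between 61.9 and 1203 CPM. The wounded cluster labelled Basal went with its name only in part. It held 12885 CPM of summed basal stratified markers, the most of the named wounded clusters, beside 10700 in normal Basal and 18662 in normal Anal Canal. The differentiation keratin Krt10 stood at 1987 CPM, against 48.4 in normal Basal and 2228 in normal Anal Canal. Over 3066 genes its log2 levels correlated at r = 0.897 with normal Anal Canal and at 0.760 with normal Basal. Of its 573 cells, 554 fell in a rebuilt cluster led by Sprr2d, Ppbp, Ltf and Psca. The wounded Suprabasal cluster was made of 2 kinds of cell. Of its 1032 cells, 458 were rich in Cst6, an inhibitor of cysteine proteases, and most like normal Suprabasal (r = 0.907), 558 were rich in the basal keratin Krt15 and most like normal Basal (r = 0.870), and 16 were elsewhere. Regeneration and Wound_Stress cells were most like normal cells outside the deposited table that carried anal gland markers (r = 0.887 and 0.869). Hybrid cells were shallow, with a median of 2390 UMIs, and held 18734 CPM of enteroendocrine markers. They were mixed too. Of these 316 cells, 73 fell in the rebuilt cluster led by Sprr2d and 67 in that of the Krt15-rich cells. A cluster led by Kdr and Ptprb held 59, and a cluster led by Scg2 and Gcg held 30. The latter also held 255 left-out cells with hair follicle markers, so its leading genes alone do not name those 30 cells. Hybrid levels and ratios are thus pooled over several kinds of cell. Of the wounded Rectum cells, 289 fell in a rebuilt cluster led by Defb45 and Kcne3 and 108 in one led by Igkc and Igha. All 63 normal Rectum cells fell together. These correlations are across genes, which are not independent replicates. Comparisons of wounded with normal cells that rest on the wounded Basal or Suprabasal name are therefore given by name and by matched markers. Comparisons within the wounded library are given by name, so that Basal there stands for the cells most like normal Anal Canal.

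The 4 ligand genes Epgn, Ereg, Areg and Btc lie next to each other on mouse chromosome 5 (GRCm38), Epgn at chr5:91027464-91035215, Ereg at chr5:91074622-91093646 and Areg at chr5:91139599-91148432 on the plus strand, and Btc at chr5:91357261-91402994 on the minus strand. Tgfa lies at chr6:86195223-86275719 on the plus strand. Of the receptors, Egfr (chr11:16752203-16918158) and Erbb2 (chr11:98412470-98437716) are on the plus strand of the same chromosome and Erbb3 is at chr10:128567523-128589652 on the minus strand. RefSeq windows of 250 bases before the start (GRCm38.p6) were matched for 6 members. The windows of Areg (chr5:91139349-91139598, plus strand) and Btc (chr5:91402995-91403244, minus strand) are shown because these 2 ligands had the widest ratios between the 2 kinds of wounded Suprabasal cell, and capitals mark a cyclic AMP response element (TGACGTCA) and a TATA box (TATAAA).
Areg: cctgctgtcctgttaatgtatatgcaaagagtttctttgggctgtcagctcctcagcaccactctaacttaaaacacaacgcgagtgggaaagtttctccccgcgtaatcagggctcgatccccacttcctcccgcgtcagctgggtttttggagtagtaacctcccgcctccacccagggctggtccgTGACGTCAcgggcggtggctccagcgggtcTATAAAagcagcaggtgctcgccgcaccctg
Btc: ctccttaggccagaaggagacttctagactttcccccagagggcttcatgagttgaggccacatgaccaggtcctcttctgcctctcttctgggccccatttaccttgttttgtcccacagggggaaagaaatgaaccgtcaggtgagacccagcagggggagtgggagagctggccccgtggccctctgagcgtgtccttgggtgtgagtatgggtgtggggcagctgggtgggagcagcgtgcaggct
The first base of the response element stood 61 bases and that of the TATA box 31 bases before the start of Areg, and the Btc window held neither. Searched on both strands over all 32851 windows of this length, the response element occurred in 1.55% and the TATA box in 12.4%. An AP-1 motif (TGANTCA), found in 6.75% of all windows, occurred in 0 of the 6 member windows, and the Epgn window held a TATA box 86 bases before the start. A match is a run of letters, and no binding was measured.

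**Figure D1:**
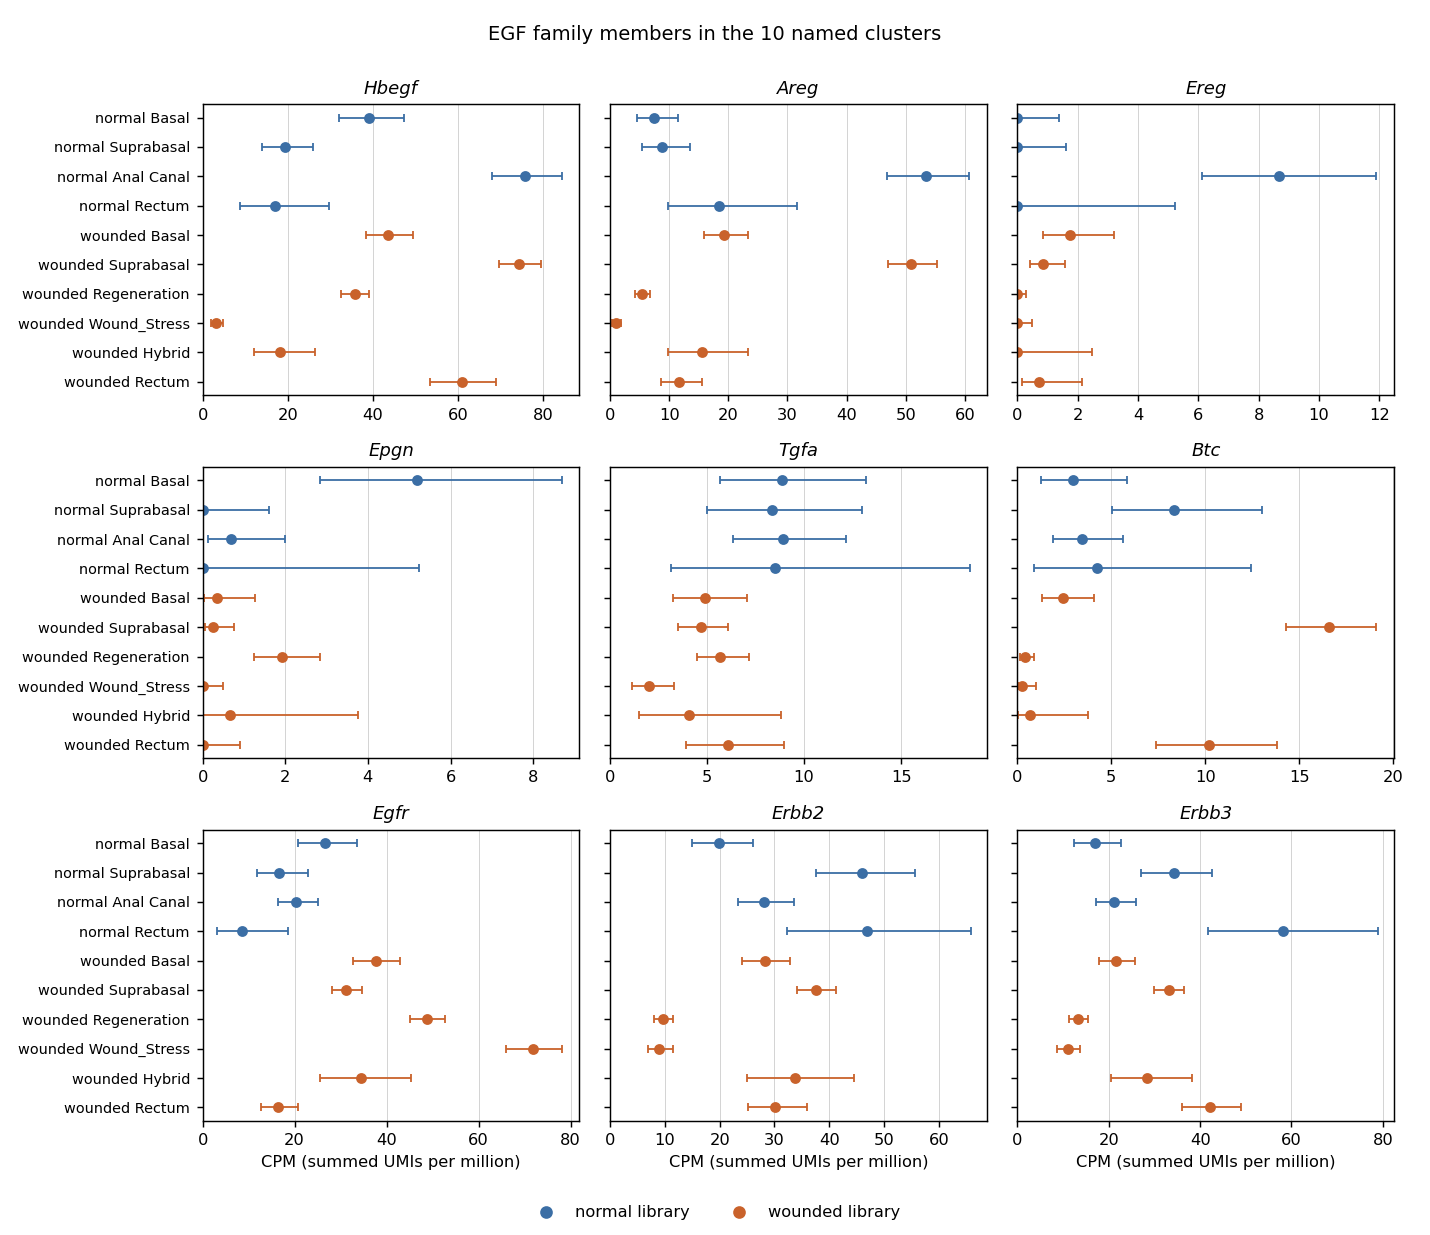
Level of each member in the 10 named clusters, with CPM on the x axis from 0 (its range differs between panels), points for the level, bars for the 95% exact Poisson interval, and normal clusters in blue and wounded clusters in orange. By CPM, Hbegf and Areg are highest in normal Anal Canal and wounded Suprabasal. Egfr is highest in wounded Wound_Stress at 71.8 CPM, the cluster in which both ligands are lowest.

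Hbegf, heparin-binding EGF-like growth factor, was found in all 10 clusters. In the normal library it was at 75.8 CPM in Anal Canal (95% exact Poisson interval 67.8 to 84.4), 39.2 in Basal (32.1 to 47.4), 19.3 in Suprabasal (14.0 to 25.9) and 17.0 in Rectum (8.81 to 29.8). In the wounded library it was at 74.4 CPM in Suprabasal (69.5 to 79.5), 60.8 in Rectum (53.5 to 68.8), 43.6 in Basal (38.3 to 49.3), 35.8 in Regeneration (32.6 to 39.2), 18.2 in Hybrid (12.0 to 26.5) and 3.22 in Wound_Stress (2.06 to 4.79). Wound_Stress, with 24 Hbegf UMIs in 838 cells, stood apart below every other cluster. With all 10 placed in order, the interval of the ratio of neighbours excluded equal levels at 4 steps, between wounded Suprabasal and wounded Rectum, between wounded Rectum and wounded Basal, between Regeneration and normal Suprabasal, and between normal Rectum and Wound_Stress. Within wounded Suprabasal the level was 104 CPM in the Cst6-rich cells (96.2 to 112) and 30.9 in the Krt15-rich cells (26.0 to 36.5).

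Areg, amphiregulin, another ligand made by keratinocytes, had the same 2 clusters at the top. The normal library had 53.4 CPM in Anal Canal (46.8 to 60.7), 18.5 in Rectum (9.83 to 31.6), 8.76 in Suprabasal (5.35 to 13.5) and 7.39 in Basal (4.52 to 11.4). The wounded library had 51.0 CPM in Suprabasal (46.9 to 55.3), 19.3 in Basal (15.9 to 23.3), 15.5 in Hybrid (9.83 to 23.3), 11.7 in Rectum (8.61 to 15.5), 5.38 in Regeneration (4.20 to 6.80) and 0.938 in Wound_Stress (0.377 to 1.93). The order had 2 steps that excluded equal levels, that from wounded Suprabasal to wounded Basal and that from Regeneration to Wound_Stress. Areg was concentrated in few cells. In normal Anal Canal 234 Areg UMIs were found in 12.0% of the cells, 51 of them in a single cell, and 71.4% in the top 10 cells. In the Cst6-rich wounded cells the level was 81.5 CPM (75.0 to 88.5), Areg was found in 33.2% of cells and the top 10 cells held 44.1% of its UMIs, against 4.70 CPM in the Krt15-rich cells.

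Ereg, epiregulin, was rare in named cells. Normal Anal Canal had 8.67 CPM (6.14 to 11.9, 38 UMIs), wounded Basal 1.74 (10 UMIs), wounded Suprabasal 0.864 (10 UMIs, all in Cst6-rich cells) and wounded Rectum 0.730 (3 UMIs). The other 6 clusters had 0 Ereg UMIs, which with 3 UMIs as the limit allows from 0.231 CPM in Regeneration to 4.26 in normal Rectum. Among named clusters Ereg thus had more than 10 UMIs in normal Anal Canal alone, and wounded Basal and wounded Suprabasal did not differ beyond their counting error.

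Epgn, epigen, was also near the limit of detection. It was at 5.18 CPM in normal Basal (2.83 to 8.68), but 9 of these 14 UMIs came from 1 cell. Regeneration had 25 Epgn UMIs (1.92 CPM, 1.24 to 2.84), and no other named cluster had more than 3. In normal Suprabasal, normal Rectum, Wound_Stress and wounded Rectum 0 Epgn UMIs were counted, which allows up to 1.31, 4.26, 0.402 and 0.730 CPM.

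Tgfa, transforming growth factor alpha, was the most even of the ligands. The 4 normal clusters lay between 8.32 and 8.90 CPM. The wounded clusters had 6.08 CPM in Rectum, 5.69 in Regeneration, 4.88 in Basal, 4.67 in Suprabasal, 4.05 in Hybrid and 2.01 in Wound_Stress (1.13 to 3.32), all below the 4 normal clusters. With the clusters placed in order, no step between neighbours excluded equal levels. Normal counts were small, 39 UMIs in Anal Canal, 24 in Basal, 19 in Suprabasal and 6 in Rectum.

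Btc, betacellulin, marked other clusters than Hbegf and Areg did in the normal library. It was at 8.32 CPM in normal Suprabasal (5.01 to 13.0), 4.26 in Rectum (3 UMIs), 3.42 in Anal Canal and 2.96 in Basal. In the wounded library it was at 16.6 CPM in Suprabasal (14.3 to 19.1), 10.2 in Rectum (7.36 to 13.8), 2.44 in Basal, 0.674 in Hybrid (1 UMI), 0.384 in Regeneration (5 UMIs) and 0.268 in Wound_Stress (2 UMIs). The Suprabasal signal was again in the Cst6-rich cells, at 24.9 CPM (21.3 to 28.9, 173 UMIs) against 4.03 in the Krt15-rich cells (18 UMIs).

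Egfr, the receptor of these ligands, followed an order of its own. It was at 26.6 CPM in normal Basal (20.8 to 33.5), 20.3 in Anal Canal (16.3 to 24.999), 16.6 in Suprabasal (11.8 to 22.9) and 8.52 in Rectum (3.13 to 18.5, 6 UMIs). In the wounded library it was at 71.8 CPM in Wound_Stress (65.9 to 78.2), 48.8 in Regeneration (45.0 to 52.7), 37.6 in Basal (32.8 to 43.0), 34.4 in Hybrid (25.6 to 45.2), 31.3 in Suprabasal (28.1 to 34.7) and 16.3 in Rectum (12.6 to 20.7). The top 5 clusters were all wounded, and the steps from Wound_Stress to Regeneration and from Regeneration to Basal excluded equal levels, whereas no other step did. Egfr was spread over many cells, with 6.90% of the 536 Wound_Stress UMIs in the top 10 cells. Of the wounded Suprabasal cells, the Krt15-rich cells had 51.7 CPM (45.3 to 58.8) and the Cst6-rich cells 17.3 (14.3 to 20.6), the reverse of the ligands.

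Among the 10 named clusters Erbb2 and Erbb3, the partner receptors, were lowest in the 2 with the most Egfr. Erbb2 was at 46.9 CPM in normal Rectum, 46.0 in Suprabasal, 28.1 in Anal Canal and 19.96 in Basal. In the wounded library Erbb2 was at 37.5 in Suprabasal, 33.7 in Hybrid, 30.2 in Rectum, 28.2 in Basal, 9.69 in Regeneration (8.07 to 11.5) and 8.98 in Wound_Stress (6.96 to 11.4). By CPM, Erbb3 was highest among named clusters in the Rectum of both libraries, at 58.2 CPM in normal and 42.1 in wounded cells. The steps from normal to wounded Rectum and from wounded Rectum to normal Suprabasal did not exclude equal levels. Other Erbb3 levels were 34.2 in normal Suprabasal, 21.2 in Anal Canal, 17.0 in normal Basal, 33.1 in wounded Suprabasal, 28.3 in Hybrid, 21.6 in wounded Basal, 13.2 in Regeneration and 10.99 in Wound_Stress. The Cst6-rich wounded cells alone had 38.0 CPM of Erbb3. Over the 10 clusters log2(CPM + 1) of Erbb2 and Erbb3 correlated at r = 0.896, Egfr correlated with Erbb3 at -0.865, with Erbb2 at -0.788 and with Tgfa at -0.779, and Hbegf correlated with Areg at 0.771. These are descriptions over 10 points that share 2 libraries and their cell preparation. They pool the Krt15-rich with the Cst6-rich wounded Suprabasal cells. With each cell thinned to 2000 UMIs, Egfr was found in 9.87% of Krt15-rich and 9.33% of Regeneration cells. Erbb2 was found in 6.95% and 2.43% of them and Erbb3 in 4.39% and 2.64%. High Egfr in the Krt15-rich cells thus did not go with low Erbb2. At the same depth Erbb3 was found in 8.32% of Cst6-rich and 7.34% of wounded Rectum cells. In the normal library it was found in 7.10% of Suprabasal and 5% of Rectum cells (3 of 60). Rectum thus did not lead in Erbb3 at equal depth, and the intervals of the shares overlapped in each pair. Erbb4, the remaining receptor of the family, had 0 UMIs in every named cluster.

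The ratios below are log2 of the CPM of the first over the second group with a 95% exact binomial interval. A gene was compared where the 2 groups held at least 20 UMIs together, and it was called higher or lower past 2-fold. Beside each count of members stands the share of all compared genes past 2-fold in either direction.

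In the normal library the Suprabasal layer had more Btc, Erbb2 and Erbb3 and less Hbegf than the Basal cluster. Of the 7 members compared 4 were past 2-fold, against 23.7% of all 9682 genes, with log2 ratios of 1.49 for Btc, 1.20 for Erbb2, 1.01 for Erbb3 and -1.02 for Hbegf. Egfr stood at -0.68 and did not pass. The member median was 0.25 and that of all genes -0.29, and with size factors in place of totals Hbegf stood at -0.73, short of the call. Summed immediate-early genes (Fos, Jun, Egr1 and 11 others that respond to stimulation and to dissociation) were at 2258 CPM in Suprabasal and 9618 in Basal, and in the cells at or under the median immediate-early share the Hbegf ratio was -0.60. The part of this in the Hbegf ratio was not tested.

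Normal Anal Canal had more Areg and Ereg than Basal. Areg was 7.22-fold higher (log2 2.85, interval 2.19 to 3.59), and Ereg, at 0 UMIs in Basal, was at least 7.82-fold higher. These were the 2 calls among the 8 members compared, where 18.9% of all genes passed, and the medians were 0.41 for members and 0.02 for all genes. Hbegf, at 0.95 on the log2 scale, missed the call, and Btc (0.21) and Tgfa (0.005) were near equal. The Areg ratio lay between 1.778 and 2.997 in every recomputed setting, whereas 3 of the 38 Ereg UMIs of Anal Canal were in its cells at or under the median immediate-early share, too few for a ratio.

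By CPM, Rectum had more Erbb3 and less Egfr than the other named clusters pooled. In the normal library Erbb3 was higher (1.33) and Egfr (-1.32) and Hbegf (-1.59) were lower, 3 of 8 members compared, against 32.4% of all genes (medians -0.06 and 0.04). In the wounded library Erbb3 was higher (1.04) and Egfr lower (-1.49), 2 of 9 members, against 33.9% of all genes (medians 0.50 and 0.07), with Btc at 0.91 and Hbegf at 0.55. The shares of members called were near or below those of all genes. Erbb3 in the wounded library was at 0.94 with size factors and 0.92 in the cells at or under the median immediate-early share, both short of the call. The wounded Rectum had the highest median mitochondrial share of all clusters, 12.9%, and its part in these ratios was not tested.

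Within the wounded library, Regeneration cells had little Areg and Erbb2 and some Epgn relative to the cluster labelled Basal. Epgn was higher (2.46) and Areg (-1.85) and Erbb2 (-1.54) were lower, 3 of 7 members, against 25.6% of all genes (medians -0.28 and -0.13). Egfr at 0.37 and Erbb3 at -0.71 did not pass. Immediate-early genes were at 15367 CPM in Regeneration and 914 in that Basal cluster, and their part in these ratios was not tested. Wound_Stress cells had the lowest Hbegf, Areg, Tgfa and Btc levels of the 10 named clusters, while the left-out wounded anal gland-like cells had lower ones still (Hbegf 1.06, Areg 0.176, Tgfa 0.706 and Btc 0.176 CPM). For Tgfa and Btc the interval of the ratio between Wound_Stress and the next named cluster held equal levels. Against the same Basal cluster, Areg (-4.37), Hbegf (-3.76, 13.5-fold lower), Erbb2 (-1.65) and Tgfa (-1.28) were lower, 4 of 6 members, against 23.1% of all genes (medians -1.47 and 0.03), and Egfr was at 0.93. The Hbegf, Areg and Erbb2 ratios passed in every recomputed setting, and Tgfa in 6 of 7. In the cells at or under the median immediate-early share Tgfa had 7 UMIs in Wound_Stress and 6 in Basal, too few for a ratio. These 2 comparisons share the Basal cells.

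Compared directly, Wound_Stress and Regeneration differed in all the ligands that could be compared and in none of the receptors past 2-fold. Hbegf was 11.1-fold lower in Wound_Stress (-3.47), Areg was at -2.52 and Tgfa at -1.50, and Epgn, at 0 UMIs in Wound_Stress, was at least 4.78-fold lower. These were 4 of 7 members, against 10.7% of all genes (medians -1.50 and 0.13). All 4 passed in every recomputed setting. Egfr was higher in Wound_Stress by 0.56 (0.39 to 0.73), below the call. Regeneration levels are pooled over several kinds of cell, and the part of this mixture in the ratios was not tested. Regeneration cells held 15367 CPM of immediate-early genes and Wound_Stress cells 1202, with median mitochondrial shares of 5.91% and 10.95%, and the part of either in the ligand ratios was not tested.

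The wounded Suprabasal cluster, taken whole against the wounded Basal cluster, had more Btc (2.77) and Areg (1.40) and less Ereg (-1.01), 3 of 8 members, against 21.1% of all genes (medians 0.51 and -0.14). Hbegf stood at 0.77. The Ereg ratio rests on 10 UMIs in each cluster, its interval held equal levels (-2.43 to 0.41), and it passed in 3 of 7 recomputed settings. The 2 kinds of cell inside it differed more from each other. The Cst6-rich cells had 17.3-fold more Areg than the Krt15-rich cells (4.12), with Btc at 2.63, Hbegf at 1.75 and Egfr at -1.58, 4 of 7 members, against 28.5% of all genes (medians 0.65 and -0.40). Hybrid cells, set against wounded Rectum, had less Btc (-3.92) and Hbegf (-1.74) and more Egfr (1.08), 3 of 7 members, against 27.3% of all genes (medians -0.57 and 0.08), and the Egfr ratio was 0.24 with the deposited values.

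Wounded and normal cells were then compared. By name, wounded Basal cells differed from normal Basal cells in Areg (1.39, 0.69 to 2.15), 1 of 7 members, against 29.2% of all genes (medians 0.35 and -0.02). Matched by markers, the same wounded cells had less Areg (-1.47, -1.80 to -1.13) and less Ereg (-2.32) than normal Anal Canal, 2 of 8 members, against 17.2% of all genes (medians -0.64 and -0.02). The direction for Areg thus depended on the cells taken as the counterpart. Hbegf (-0.80) and Egfr (0.89) did not pass. The Areg ratio over Anal Canal was -0.50 as a mean of per-cell CPM, -0.67 without the 5% deepest cells and 0.15 in the cells at or under the median immediate-early share.

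Wounded Suprabasal cells had more Areg and Hbegf than normal Suprabasal cells, by name and by markers. By name, Areg was at 2.54 and Hbegf at 1.95, 2 of 7 members past 2-fold, against 21.8% of all genes (medians 0.91 and 0.14), with Btc at 0.99 and Egfr at 0.91. For the Cst6-rich cells alone, Areg was 9.30-fold higher (3.22, 2.58 to 3.94), Hbegf 5.38-fold higher (2.43, 1.99 to 2.90) and Btc at 1.58 (0.89 to 2.35), 3 of 7 members, against 17.3% of all genes (medians 0.15 and -0.07). The receptors were near equal, with Egfr at 0.05, Erbb2 at -0.14 and Erbb3 at 0.15. All 3 ligand calls held in every recomputed setting. Immediate-early genes were at 4744 CPM in the Cst6-rich cells and 2258 in normal Suprabasal, and the median mitochondrial share was 7.18% and 5.005%.

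The Krt15-rich wounded cells against normal Basal had Egfr at 0.96 (0.57 to 1.36), just under the call. Tgfa was lower (-1.31), the single call among 7 members, against 19.8% of all genes (medians 0.45 and -0.02), and Areg (-0.65), Hbegf (-0.34) and Btc (0.45) had intervals that held equal levels, with Erbb2 at 0.62. Rectum cells of the wounded library had more Hbegf than normal Rectum cells (1.84, 1.01 to 2.81), and Btc was past 2-fold with an interval that held equal levels (1.26, -0.38 to 3.60), 2 of 7 members, against 18% of all genes (medians -0.47 and 0.02). The Hbegf ratio in Rectum lay between 1.31 and 2.20 in every recomputed setting, although it rests on 12 normal UMIs. Wounded Rectum levels are pooled over cells of different rebuilt clusters, and the part of this mixture in the Rectum ratios was not tested.

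**Figure D2:**
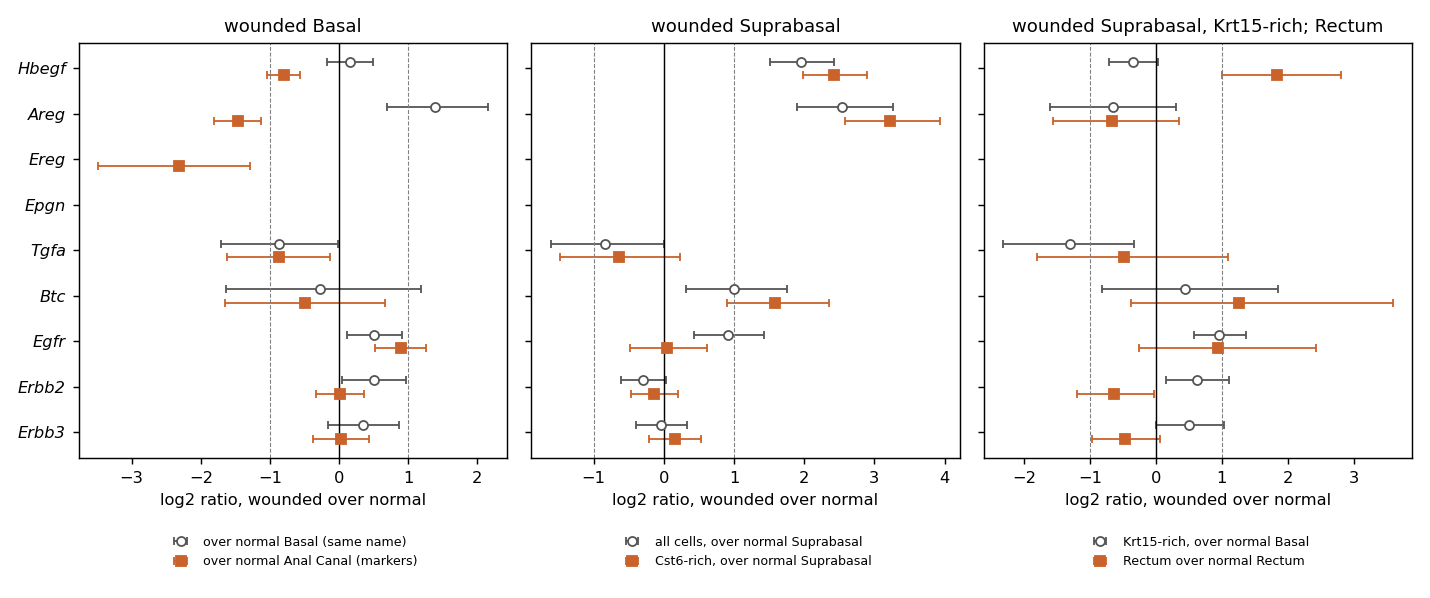
Log2 ratio of wounded over normal cells for each member compared, with 95% exact binomial intervals as bars and dashed lines at 2-fold. Areg changes sign between the 2 counterparts of wounded Basal (1.39 and -1.47), and Areg, Hbegf and Btc lie furthest to the right in the Cst6-rich cells (3.22, 2.43 and 1.58), where the receptors lie near 0.

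To compare shares of cells at equal depth, each cell was thinned to 2000 UMIs, and 44 normal and 221 wounded named cells below that depth were left out, 132 of them Hybrid cells. A UMI of any of the 6 ligands was found in 21.4% of Cst6-rich cells (exact binomial interval 17.8 to 25.5, 98 of 457), 14.7% of wounded Rectum, 13.3% of normal Rectum and 13.1% of normal Anal Canal. It was found in 9.24% of Hybrid, 9.04% of wounded Basal, 9.02% of normal Basal, 8.42% of Regeneration, 5.46% of normal Suprabasal and 5.30% of Krt15-rich cells. Wound_Stress had 0.856% (7 of 818), and the left-out wounded anal gland-like cells 0 of 359, which allows up to 1.02%, at median depths of 8532 and 15355 UMIs. The interval of the Wound_Stress share (0.345 to 1.76) reaches below that limit, so the shares of these groups cannot be told apart. An Egfr UMI was found in 14.4% of Wound_Stress cells (12.1 to 17.0), 9.87% of Krt15-rich, 9.33% of Regeneration and 8.69% of wounded Basal cells. The share was between 3.06% and 5.10% in the Cst6-rich, Hybrid, wounded Rectum and all 4 normal clusters. Among named cells, those with a ligand UMI and those with an Egfr UMI were thus most frequent in different clusters. The left-out wounded hair follicle-like cells were high in each, with an Egfr UMI in 14.2% (10.1 to 19.2) and a ligand UMI in 11.7% of 247 cells. A ligand and an Egfr UMI were found together in 7 of 895 normal (0.782%) and 20 of 3926 wounded named cells (0.509%). Over all these cells a ligand UMI was found in 10.4% of normal and 8.61% of wounded cells, and an Egfr UMI in 4.80% and 8.89%. At such shares few cells would hold both if detection were independent, and the counts were not compared with that. Without thinning, Hbegf was found in 46.7% of Cst6-rich and 2.27% of Wound_Stress cells, and Egfr in 43.0% of Wound_Stress cells.

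**Figure D3:**
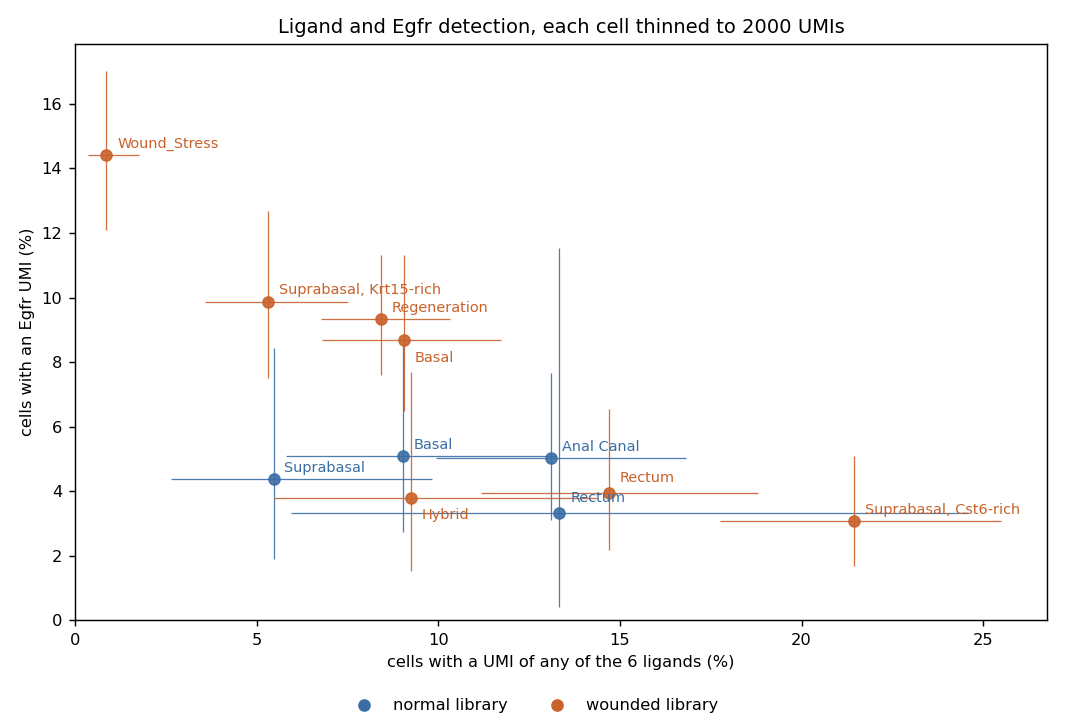
Percent of cells with an Egfr UMI (y axis) against percent with a UMI of any ligand (x axis) after thinning to 2000 UMIs, with points for clusters, bars for 95% exact binomial intervals, and normal clusters in blue and wounded in orange. Wound_Stress lies at the top left (0.856% and 14.4%) and the Cst6-rich cells at the lower right (21.4% and 3.06%).

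Levels outside the Cst6-rich cells were set beside that of Cst6 itself, as a view of free RNA in the droplets. In wounded Rectum its level was 1.02% of that in the Cst6-rich cells, whereas Areg stood at 14.3%, Btc at 41.1% and Hbegf at 58.7% of theirs. In Wound_Stress Cst6 was at 0.292%, and Btc (1.08%), Areg (1.15%) and Hbegf (3.103%) were all low, though above it. In the barcodes that failed the filter Cst6 was at 1.34%, Btc at 11.4%, Areg at 13.97% and Hbegf at 34.4%, the Areg value being close to that of wounded Rectum. These barcodes had a median mitochondrial share of 60.0% and held 2394 CPM of rectal markers, so they do not measure free RNA alone. Whether Cst6 gauges free ligand RNA, and the part of free RNA in these levels, was not tested.

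Hbegf and Areg moved with immediate-early genes inside most clusters compared, and the receptors did not pass the call. Each cluster was parted at its own median share of immediate-early UMIs. Only the members were compared in this way, so the share of all genes past 2-fold between the 2 parts is not known. Hbegf was higher past 2-fold in the upper cells in 8 of 9 clusters compared, from 11.1 to 134 CPM in normal Anal Canal (3.60) from 27.9 to 171 in the Cst6-rich and from 8.75 to 51.8 in the Krt15-rich wounded Suprabasal cells, the exception being Regeneration, with 28.0 and 44.8 CPM (0.68). Areg was higher past 2-fold in 6 of 8 clusters, from 9.63 to 92.9 CPM in normal Anal Canal and from 28.2 to 129 in the Cst6-rich cells. The exceptions were Regeneration (-0.45) and wounded Rectum (0.19), whose intervals held equal levels. Wounded Suprabasal taken whole went from 16.6 to 120 CPM for Hbegf and from 12.9 to 81.3 for Areg, but its 2 kinds of cell differ in immediate-early RNA (4744 and 2381 CPM), so that the median there partly parts the kinds. Regeneration, with 601 and 262 cells in different rebuilt clusters, wounded Rectum, with 289 and 108, and Hybrid were mixed as well. Their kinds of cell were not parted separately. Tgfa passed in 1 of 6 clusters. Btc was lower past 2-fold in wounded Rectum (-1.01, with an interval that held equal levels) and stood at 0.77 in wounded Suprabasal. Ereg stood at 3.4 in normal Anal Canal and Epgn at -0.13 in Regeneration. Egfr passed in 0 of 9 clusters (-0.83 to 0.44, the lowest in wounded Suprabasal taken whole, at -0.37 and -0.19 in its 2 kinds of cell), Erbb2 in 0 of 10 (-0.46 to 0.25) and Erbb3 in 0 of 10 (-0.18 to 0.53). Dissociation at 37 °C and signalling in the tissue cannot be told apart in this measure.

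**Figure D4:**
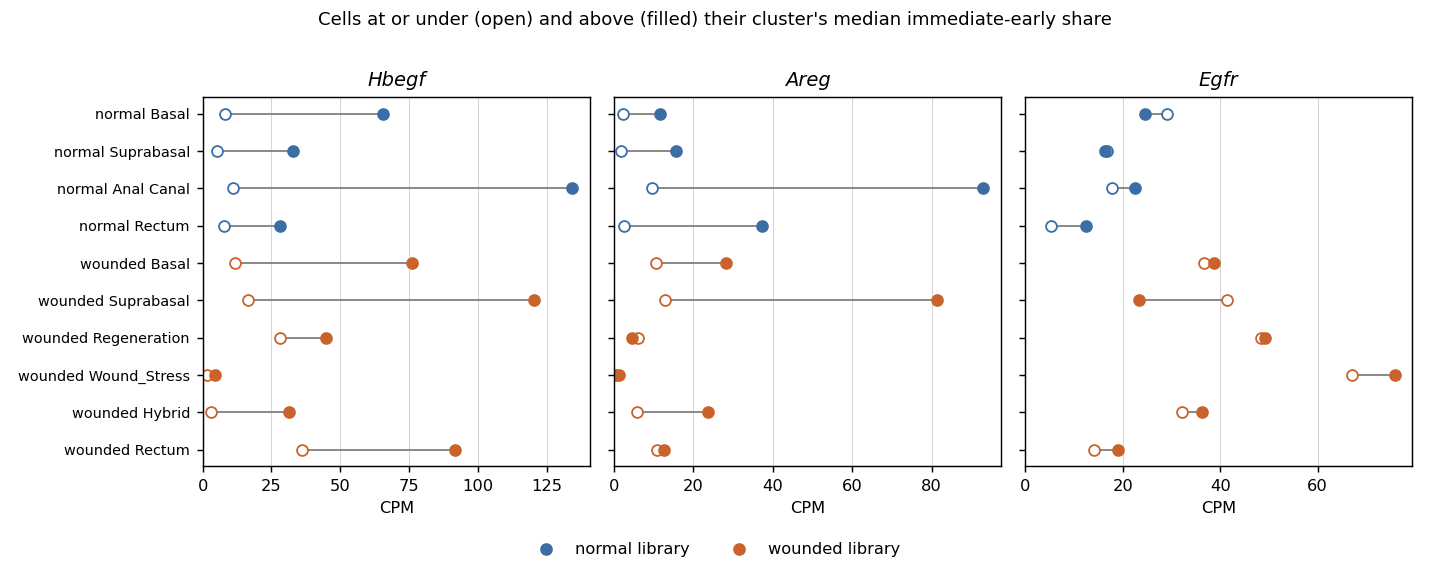
CPM of Hbegf, Areg and Egfr (x axes from 0) in the cells at or under (open) and above (filled) the median immediate-early share of their cluster, with normal clusters in blue and wounded in orange. The open and filled points lie far apart for Hbegf in normal Anal Canal (11.1 and 134 CPM) and wounded Suprabasal (16.6 and 120 CPM) and closer together for Egfr, where the widest gap is 41.3 and 23.3 CPM in wounded Suprabasal taken whole.

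The cells left out of the deposited tables were sorted by markers into types. The normal library held 332 anal gland-like cells, led by the lipid-synthesis genes Scd3, Fa2h and Elovl3, 184 hair follicle-like and 65 fibroblast-like cells, and the wounded library held 359, 255 and 329. The fibroblast-like cells carried 14960 and 17398 CPM of fibroblast markers and were present in spite of the PDGFRa exclusion. They also carried 12364 and 7722 CPM of smooth muscle markers. Ereg was found in this cluster alone among the left-out cells, at 27.9 CPM in normal (13.9 to 49.9, 11 of 11 UMIs) and 11.9 in wounded cells (8.06 to 17.1, 30 of 30 UMIs). Btc was also present in fibroblast-like cells, at 7.61 CPM in normal cells and 16.7 CPM in wounded cells (42 UMIs). The hair follicle-like cells had the most Hbegf of the 3 types, 86.5 CPM in the normal and 148 in the wounded library. Their Egfr stood at 41.4 CPM in the normal and 73.6 in the wounded library. This Hbegf came from few cells, since the top 10 held 83.8% of the 117 normal and 67.1% of the 319 wounded UMIs. The same normal cells held 13 Epgn UMIs (9.61 CPM). Anal gland-like cells had 7.70 and 1.06 CPM of Hbegf, and 34.5 and 26.3 of Egfr. Areg was at 1.24 CPM or less in each of these types in both libraries.

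Taken whole, left-out cells had less Areg and Tgfa than named cells in both libraries. In the normal library Areg (-4.83), Tgfa (-2.25), Erbb3 (-1.45), Btc (-1.42) and Ereg (-1.04) were lower, 5 of 9 members, against 23.6% of all genes (medians -1.04 and 0.14), and Egfr stood at 0.76. In the wounded library Ereg was higher (2.25) and Areg (-4.86), Epgn (-1.50) and Tgfa (-1.20) were lower, 4 of 9 members, against 25.6% of all genes (medians -0.71 and 0.12). The Epgn ratio rests on 3 against 31 UMIs, and its interval held equal levels (-3.85 to 0.18). The sign for Ereg differed between the libraries, but its normal ratio passed in 2 of 6 recomputed settings and lay between -1.175 and 0. Fibroblast markers over all left-out cells were at 1049 CPM in the normal and 3706 in the wounded library. The part of these cells in the difference was not tested.

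**Figure D5:**
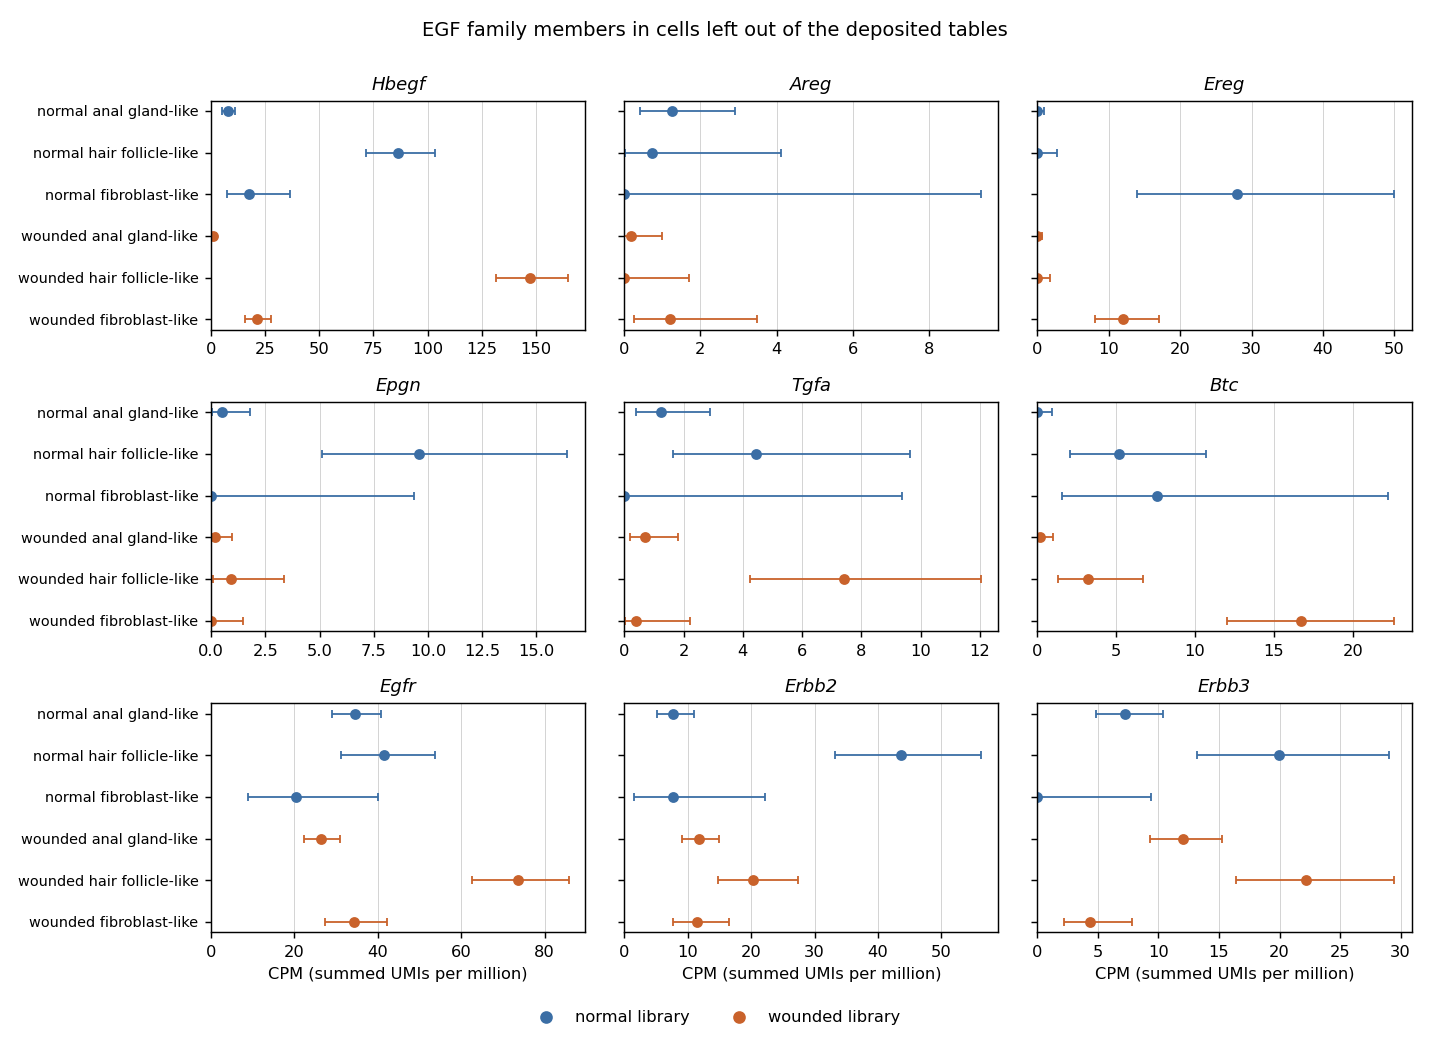
Level of each member in 3 types of left-out cell, with CPM on the x axis from 0 (its range differs between panels), bars for the 95% exact Poisson interval, and normal types in blue and wounded in orange. Ereg appears only in fibroblast-like cells (27.9 and 11.9 CPM) and Hbegf is highest in hair follicle-like cells (86.5 and 148 CPM).

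The other genes of the pathway, 46 in all (other ligands, sheddases, feedback inhibitors, cascade kinases and targets), were read beside the members. Their counts are to be read against the share of all genes past 2-fold given above for the same comparison. In Regeneration over wounded Basal 11 of 43 compared genes were higher and 3 lower, where 25.6% of all genes passed. Among those with at least 100 UMIs the higher genes included the feedback inhibitor Errfi1 (3.59, 3.39 to 3.79), the phosphatases Dusp4 (2.93), Dusp5 (2.71) and Dusp6 (2.88), and Ier3 (4.79) and Fosl1 (48.6-fold higher), which are transcribed on MAP kinase activity. The neuregulins Nrg4 (3.92) and Nrg2 (3.50) were also higher, while Nrg1 (-1.29) and the sheddase Adam10 (-1.41) were lower. Errfi1 stood at 440 CPM in Regeneration and between 13.0 and 81.7 CPM in the other 9 clusters. Immediate-early genes were at 15367 CPM in Regeneration, 1202 in Wound_Stress and 914 in wounded Basal. Their part in the pathway ratios between these clusters was not tested.

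In Wound_Stress over Regeneration 0 pathway genes were higher and 8 of 43 were lower, where 10.7% of all genes passed. They included Fosl1 (-6.39), Dusp5 (-4.90), Ier3 (-4.72), Phlda1 (-3.35), Dusp6 (-2.71) and Errfi1 (-2.48). Errfi1 in Wound_Stress, at 78.7 CPM, was still at the upper end of the other clusters. Nrg4, a neuregulin, was at 43.3 CPM in Wound_Stress and 26.4 in Regeneration. Against wounded Basal, Wound_Stress had 8 of 42 pathway genes higher, with Nrg4 (4.64), Nrg2 (3.91), Spry2 (2.45) and Dusp4 (2.24) first, and 4 lower, with Phlda1 at -3.35.

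Among normal clusters Errfi1, Dusp6 and Ier3 were highest in Basal. In Suprabasal over Basal 1 of 40 pathway genes was higher (Rhbdf2, 1.46, which helps the sheddase Adam17 to mature) and 11 were lower, with Errfi1 at -2.17, Dusp6 at -2.14 and Ier3 at -1.80. In Anal Canal over Basal 3 of 42 were higher, with Phlda1 at 2.62, and 12 lower, with Errfi1 at -2.45, Ier3 at -1.93 and Dusp6 at -1.58. Immediate-early RNA was also highest in normal Basal among these clusters, and its part was not tested. In Rectum over the others 6 of 42 were higher and 7 lower, with the inhibitors Lrig1 at 1.88 and Lrig3 at 1.73 and Ier3 at -4.89.

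Between the libraries, the Cst6-rich wounded cells over normal Suprabasal had 5 of 38 pathway genes higher, with Dusp4 (1.98), Errfi1 (1.85, 1.36 to 2.39), Ier3 (1.76) and Braf (1.25), and 3 lower, with Map2k1 at -1.03. Wounded Rectum over normal Rectum had 6 of 38 higher, with Ier3 (3.01) and Errfi1 (1.85), and 3 lower, with Map2k1 at -1.16. In the Krt15-rich cells over normal Basal 6 of 42 were higher and 7 lower, with the inhibitor Lrig3 at 1.61, Cbl at 1.18, Dusp6 at -1.53 and Ier3 at -1.30. In wounded Basal over normal Anal Canal 7 of 41 were higher, with Errfi1 at 1.49, and 8 lower, with Dusp6 at -1.95. Errfi1 was thus higher past 2-fold in the wounded cells of 3 of these 4 matched comparisons, while Map2k1, a MAP kinase kinase, was lower in all 4, at -1.05 over normal Basal and -1.16 over normal Anal Canal in the other 2. All 4 set cells of the same pair of libraries against each other, and the share of all genes that agreed in this way was not computed. The part of immediate-early genes, and of the mixture of wounded Rectum cells, in the Errfi1 ratios was not tested. The matrices were counted against gene lists of different length, and the part of this in the Map2k1 ratio was not tested.

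Over the 10 clusters, the genes whose log2(CPM + 1) was most like that of a member were named among 2311 genes. They were Rhoa (r = 0.80), Klf4 (0.79) and Lamb3 (0.78) for Hbegf, Tuba4a (0.89), Pitpna (0.87) and Kif5b (0.87) for Areg, and Ccdc47 (0.96), Nfix (0.95) and Mettl23 (0.94) for Egfr. For Erbb2 they were led by Ssu72 (0.98) and Tmem54 (0.97), and for Erbb3 by Ppdpf (0.97). With Spearman's rho as the measure, 1 of the 3 genes for Hbegf, 2 for Areg, 1 for Egfr, 0 for Erbb2 and 1 for Erbb3 were named again.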

How the data were processed

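The authors aligned reads to mm10 and counted UMIs with Cell Ranger, given as 3.1.0 in the submitters' processing notes, while the header of the wounded matrix names 4.0.0. The deposited matrices hold raw counts of UMIs per gene and barcode. The deposited per-sample tables, made by the authors with Seurat 3.2.2, give cluster names and values on a natural log scale, ln(1 + k) with k whole. They were used for the names and as an alternative.

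Cells with over 200 and under 5000 detected genes and under 25% mitochondrial UMIs passed. UMIs were summed per library and cluster. CPM carry exact Poisson intervals and log2 ratios exact binomial intervals. Genes with at least 20 UMIs over both groups were compared and called past 2-fold. A group at 0 was set to 3 UMIs for a bound. UMIs near the 3' end do not scale with length, so levels were compared within a gene. Shares were taken after thinning to 2000 UMIs. Left-out cells and wounded clusters were rebuilt in Seurat 5.3.0 (R 4.3.3, 2000 variable genes, 10 components, resolution 0.2), without the members and pathway genes. No doublet caller was run, and an alternative left out the 5% deepest cells. Python 3.11.15 with numpy 2.4.6, scipy 1.17.1 and pandas 2.3.3 was used. On summed counts drawn as Poisson values at the depth of normal Basal and Anal Canal (10321 genes, 200 changed) 99.5% of changed genes were recovered and 1.67% of the others were called. The changes were larger than 2-fold and set in better counted genes, and the draws held no clumping of UMIs in few cells. These rates thus do not carry over to calls on members with few or clumped UMIs.

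The members and gene lists were chosen with earlier results of these data known. All members were named, as were pathway genes past 2-fold with at least 100 UMIs (leading ones where many) and the 3 genes most like each member with enough UMIs. Exceptions are genes used to describe clusters. Alternatives were other scalings, folds, UMI minima, depths, filters and the deposited values. Samples were grouped by the condition in their labels. Gene positions are from the GENCODE annotation of GRCm38 and promoter windows from RefSeq.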

Additional observations from a re-analysis of the deposited data

Results flagged for a closer look

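For 3 members a ratio had opposite signs in the normal and wounded libraries, and with 1 library per condition these differences were not tested. Hbegf in Suprabasal over Basal was at a log2 ratio of -1.02 in the normal and 0.77 in the wounded library, where the wounded Basal cells were most like normal Anal Canal. Hbegf in Rectum over the other clusters was at -1.59 in the normal and 0.55 in the wounded library. Ereg in left-out over named cells was at -1.04 in the normal library (past 2-fold in 2 of 6 recomputed settings) and 2.25 in the wounded library. Egfr in the same comparison was at 0.76 and -0.21.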

How the results depend on the processing

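Of 52 member ratios past 2-fold, 31 passed in every recomputed setting and 47 kept their sign. No paired analysis was possible because each condition had 1 library and no test was made. Of 956 recomputed member ratios 848 stayed within the 95% counting interval (bounds within 1 on the log2 scale), 104 moved out of it and 4 reversed. The matching of clusters by markers was chosen after seeing the data. Ereg in wounded Suprabasal over Basal (-1.01) stands beside a bound of 1.10 for Cst6-rich over Krt15-rich cells, which sets other cells against each other and rests on 10 against 0 UMIs, under the minimum for a comparison. Areg in wounded over normal Basal became -1.47 over normal Anal Canal and -0.65 for Krt15-rich cells over normal Basal, and Areg in wounded Basal over Anal Canal became 0.15 in the cells at or under the median immediate-early share. The causes were not tested.

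Counts of members past 2-fold moved by over 1.5 times in 53 of 218 recomputations. In the cells at or under the median immediate-early share they were 1 for normal Suprabasal over Basal, for Anal Canal over Basal and for wounded Basal over Anal Canal, 4 for wounded Rectum over the others and over normal Rectum, and 3 for normal left-out cells. At 4-fold they were 0 for both Rectum comparisons within a library, wounded Rectum over normal, normal Suprabasal over Basal, wounded over normal Basal and Krt15-rich over normal Basal, 1 for wounded Suprabasal and Regeneration over Basal, Hybrid over Rectum, wounded over normal Suprabasal and wounded Basal over Anal Canal, and 2 for Wound_Stress over Basal, both left-out comparisons and Cst6-rich over Krt15-rich. At 1.5-fold they were 5 for normal Rectum over the others, wounded Suprabasal over Basal, wounded over normal Suprabasal, wounded over normal Rectum and wounded Basal over Anal Canal, 4 for wounded Rectum over the others and Krt15-rich over normal Basal, 2 for wounded over normal Basal and 8 for normal left-out cells. With at least 100 UMIs they were 1 for Anal Canal over Basal, Wound_Stress over Regeneration, wounded over normal Rectum and wounded Basal over Anal Canal, 2 for both left-out comparisons and 0 for Krt15-rich over normal Basal. With at least 1 UMI they were 5 for Regeneration over Basal and 2 for wounded over normal Basal and Krt15-rich over normal Basal. Size factors gave 1 for wounded Rectum over the others. Mean per-cell CPM and the deposited values each gave 4 for wounded Rectum over the others and over normal Rectum. For Krt15-rich over normal Basal the count was 3 by mean per-cell CPM and without the 5% deepest cells, and 2 with the deposited values and with mitochondrial UMIs left out of the total. The deposited values gave 2 for wounded over normal Basal, as did matching to Anal Canal. Wounded Basal over Anal Canal gave 1 without the 5% deepest cells, and wounded over normal Rectum gave 1 when the interval also had to exclude equal levels.

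With at least 100 UMIs the counts of other pathway genes were 6 for normal Suprabasal and for Anal Canal over Basal, 5 for Hybrid over Rectum, Cst6-rich over normal Suprabasal and Cst6-rich over Krt15-rich, 9 for wounded over normal Basal, 3 for wounded over normal Rectum, and 7 for wounded Basal over Anal Canal and Krt15-rich over normal Basal. The cluster with the highest CPM of a member also had the highest share of cells for 3 of the 9 members at 2000 UMIs, and for 5 at 1000 and at 4000. The depth limits Ereg and Epgn most, with 0 UMIs in 6 and 4 of the 10 clusters. Size factors moved the median of all genes by over 0.1 (log2) in 9 of the 18 comparisons, most for normal Suprabasal over Basal (-0.29) and Cst6-rich over Krt15-rich (-0.40).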
